A study of Mus musculus with 12 samples.

Results

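The NF-kB subunits and feedback inhibitors examined here are 10 genes, chosen by name from the 57186 genes of a count table: Nfkb1, Nfkb2, Rela, Relb, Nfkbia, Nfkbie, Nfkbiz, Bcl3, Tnfaip3 and Tnip1. All 10 were in the table, and all 10 passed the filter on low counts, which left 15165 genes for testing. They were measured in RNA of 3 DDKC mouse pancreatic tumor cell lines, named DDKC_9750, DDKC_9790 and DDKC_9804. The 12 libraries comprised 2 of each line with and 2 of each line without treatment. Every line shared the Dkk3-/- and Ptf1aCre/+ alleles, so the untreated controls lacked Dkk3 as well. The Dkk3 knockout was ubiquitous, while Ptf1a-driven Cre acts in the pancreatic lineage. The labels of the untreated group name no treatment, and the other group received rDKK3, the recombinant form of the secreted protein DKK3. The labels give neither a dose nor a time, name no buffer control, and give no age of the mice from which the lines came. The comparison asks what DKK3 supplied from outside does to tumor cells that make none.

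NF-kB is a family of dimeric transcription factors that waits in the cytoplasm, bound to IkB proteins, until a cytokine or microbial signal activates the IKK kinases. IKK marks the IkB proteins for destruction, the dimers enter the nucleus, and among the genes they switch on are several of their own subunits and inhibitors, so the RNA of these inhibitors is widely used as a readout of recent pathway activity. In pancreatic cancer cells the pathway is known for chronic activity and for driving inflammatory chemokines.

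Depth lay between 7520741 and 24541083 counts for untreated and between 3822987 and 11567095 counts for treated libraries, and in lines DDKC_9750 and DDKC_9804 both treated libraries were shallower than both untreated ones. Dkk3 had 0 counts in 11 libraries and 1 count in a treated library of line DDKC_9750. The keratins and other ductal epithelial markers fit the label of pancreatic cancer cells, with 7 of 8 at 3 or more counts in every library and a summed level of 5138 to 9959 CPM untreated and 4152 to 8291 CPM treated, although the epithelial adhesion gene Epcam averaged only 0.415 to 2.08 CPM. Of the acinar markers 5 of 7 (Cpa1, Pnlip, Amy2a1, Ptf1a and Cel) were at 0 in every library, and of the leukocyte markers 3 of 8 (Adgre1, Cd3e and Lyz2) were. The acinar marker Cela1 averaged 11.97 CPM untreated and 10.6 CPM treated in line DDKC_9750. It averaged 4.63 and 3.27 CPM in line DDKC_9790 and 0.342 and 0.631 CPM in line DDKC_9804. The 2 libraries of a line and condition agreed within sampling noise once a shift between low and high library numbers was taken out (deviance per degree of freedom 0.764 over 12979 genes, against 6.39 without it). For these libraries the shift was fitted for each gene, shared by the 6 groups of line and condition, with depth accounted for in both values. The 2 libraries were therefore summed and counted as 1 sample wherever the lines serve as replicates. Tests within a line, over the 12 libraries or between lines set a change against the spread between libraries, which may be technical.

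The promoters are shown because NF-kB dimers bind a short DNA motif, the kB site, and genes under NF-kB feedback are known to carry such sites close to their start. Of the members, 7 had windows in the RefSeq promoter table (build GRCm38.p6), reaching from 250 bases before to 50 bases after a start, and each of their 10 windows matched GRCm39 once. Nfkb1, Relb and Nfkbiz had none. Both strands were searched for the 10-base kB consensus and for the letters GGANNNTCC, which can overlap it. The consensus lay in a window of 6 of the 7 members, Nfkb2, Nfkbia, Nfkbie, Bcl3, Tnfaip3 and Tnip1, and the shorter letters in windows of 4, Nfkb2, Nfkbia, Nfkbie and Tnfaip3. Among all 27025 genes of the table, 9.55% held the consensus and 9.77% the shorter letters. The motifs were chosen after the windows had been seen, and a match is a description of the letters. Windows of 4 members follow, 5′ to 3′, with matches to either motif in capitals and all other bases in lower case.
Nfkbia, chr12:55539383-55539682 of GRCm39, minus strand: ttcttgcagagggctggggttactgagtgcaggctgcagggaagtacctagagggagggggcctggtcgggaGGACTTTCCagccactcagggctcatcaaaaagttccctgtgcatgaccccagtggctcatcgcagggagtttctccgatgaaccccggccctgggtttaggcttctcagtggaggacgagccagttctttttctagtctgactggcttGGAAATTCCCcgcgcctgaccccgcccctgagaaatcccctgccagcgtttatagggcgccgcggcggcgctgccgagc
Tnfaip3, chr10:18891109-18891408 of GRCm39, minus strand: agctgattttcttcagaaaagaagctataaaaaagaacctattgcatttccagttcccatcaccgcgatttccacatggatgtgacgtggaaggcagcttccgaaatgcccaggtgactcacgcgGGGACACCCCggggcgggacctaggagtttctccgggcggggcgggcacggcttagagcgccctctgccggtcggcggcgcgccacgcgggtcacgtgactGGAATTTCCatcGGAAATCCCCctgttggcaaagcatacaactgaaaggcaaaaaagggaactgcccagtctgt
Nfkb2, chr19:46292926-46293225 of GRCm39, plus strand: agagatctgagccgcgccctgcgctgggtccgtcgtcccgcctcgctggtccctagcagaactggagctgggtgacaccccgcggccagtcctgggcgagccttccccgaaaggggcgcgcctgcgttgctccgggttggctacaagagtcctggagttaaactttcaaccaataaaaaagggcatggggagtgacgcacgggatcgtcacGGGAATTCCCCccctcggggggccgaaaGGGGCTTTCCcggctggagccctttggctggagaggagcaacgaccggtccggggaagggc
Rela, chr19:5687319-5687618 of GRCm39, plus strand: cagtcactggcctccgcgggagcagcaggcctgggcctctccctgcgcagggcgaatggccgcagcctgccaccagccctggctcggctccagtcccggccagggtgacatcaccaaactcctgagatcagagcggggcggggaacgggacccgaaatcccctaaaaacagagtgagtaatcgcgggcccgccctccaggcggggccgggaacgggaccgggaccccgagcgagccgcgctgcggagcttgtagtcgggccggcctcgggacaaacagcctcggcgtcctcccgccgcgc
The Nfkbia window held a consensus match that began 29 bases before the start and a GGANNNTCC match that began 178 bases before it. The table holds a second window of Tnfaip3, at another start, with neither motif, and 3 windows of Nfkb2, all with a match, of which 1 is shown. In the Tnfaip3 window shown, the consensus matches began 125 and 12 bases before the start, with a GGANNNTCC match between them that began 24 bases before it. The Nfkb2 window held overlapping consensus matches 39 and 38 bases before the start and a further match 11 bases before it. The window of Rela, the member with the smallest log2 fold change over the 3 lines, held neither motif, and no more than that can be read from it.

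Before any treatment the members differed among themselves and between lines. Scaled to length (CPM per kb of exon, mean ± SD over the 3 untreated lines, n = 3), Rela led with 44.9 ± 5.57. It was followed by Tnip1 with 29.7 ± 8.15, Nfkbia with 26.3 ± 10.96, Nfkb1 with 24.5 ± 1.67, Bcl3 with 22.2 ± 13.2 and Nfkb2 with 20.5 ± 5.31. The lower levels per kb were those of Tnfaip3 at 17.6 ± 8.998, Nfkbiz at 14.5 ± 8.11, Relb at 12.8 ± 3.68 and Nfkbie at 5.58 ± 4.05. Rela (41.6 to 51.3 CPM per kb) lay above the range of Tnip1 (21.7 to 37.99), while each later pair of neighbors in this order overlapped. Bcl3 and Nfkb2 changed places when the longest transcript was used as the length. With that length Tnip1 (26.9 to 47.1) overlapped with Rela as well, and in untreated line DDKC_9804 Tnip1 (47.1) lay above Rela (41.8). The subunits Nfkb1 and Rela were the most even across untreated lines, with the highest line 1.15 and 1.23 times the lowest in CPM, whereas the spread was 2.34-fold for Nfkbia, 2.50-fold for Nfkbiz, 2.63-fold for Bcl3, 3.06-fold for Tnfaip3 and 3.89-fold for Nfkbie. Line DDKC_9750 had the highest untreated level of Nfkbia, Nfkbie, Nfkbiz, Bcl3 and Tnfaip3.

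**Figure D1:**
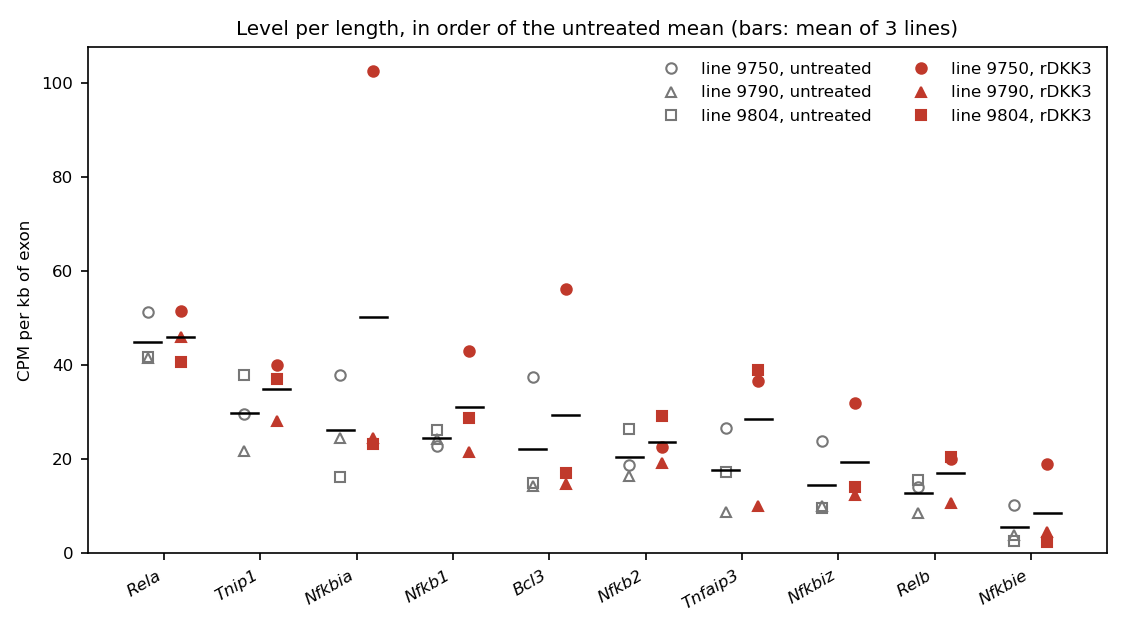
Level of each member in CPM per kb of exon (vertical axis) in untreated (open grey) and rDKK3-treated (filled red) cells, with 1 symbol for each line (mean of 2 libraries) and a bar for the mean of 3 lines. Rela was highest in the untreated cells at 44.9 and Nfkbie lowest at 5.58, and treated Nfkbia and Bcl3 of line DDKC_9750 stand above the other lines.

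With rDKK3 the members' RNA lay above the untreated level in most lines, but by amounts that depended on the line. Taking the 3 lines as replicates, all 10 members had a positive log2 fold change, with a median of 0.32 against -0.0054 over all genes tested, and by edgeR's quasi-likelihood test none passed the threshold, an adjusted p of 0.05. The same test called 0.00659% of all genes, a single gene (Lcn2). Without adjustment 3 members were under 0.05 in that fit, Relb, Nfkbiz and Tnfaip3, and DESeq2 also called 0 members. The same fit without line DDKC_9750 put Nfkb1 at -0.017, Nfkbia at 0.25 and Nfkbie at 0.079, while Tnfaip3 was at 0.71. With 3 lines an exact paired permutation test cannot go below p = 0.25. In the fit over 12 libraries, 7 of 10 members were higher and 0 lower, where 7.95% of all genes were called higher and 10.1% lower, and the median log2 fold change was 0.34 against -0.0080 over all genes. The count was 3 (Relb, Nfkbiz and Tnfaip3) when the correlation of repeat libraries was estimated with limma, and 4 without line DDKC_9750 or without any 1 of its libraries. As these are bulk samples, more cells of a type and more RNA per cell cannot be told apart.

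Within single lines, 9 of 10 members were higher in treated libraries of line DDKC_9750, where 17.9% of all genes were called higher and 17.9% lower. In line DDKC_9790, 6 were higher and 1 lower, with 12.3% of all genes higher and 13.9% lower. In line DDKC_9804, 7 were higher and none lower, with 20.1% of all genes higher and 25.3% lower. The members' median log2 fold change was 0.47 in line DDKC_9750, 0.21 in line DDKC_9790 and 0.17 in line DDKC_9804, against medians of -0.016, -0.0053 and -0.044 over all genes. The count in line DDKC_9750 stayed at 8 or 9 under each alternative run, but that in line DDKC_9790 went down to 1 with DESeq2 and 2 at equal depth, and that in line DDKC_9804 to 4 with DESeq2 and 5 at equal depth. Nfkb2, Relb, Nfkbiz and Tnfaip3 were higher in each of the 3 lines, as were 1.53% of all genes. At equal depth Nfkbiz alone remained of these, and with DESeq2 there were 0. Whether the change differed between lines was tested by the interaction of line and treatment. It called 6 of the 10 members (Nfkb1, Nfkbia, Nfkbie, Bcl3, Tnfaip3 and Tnip1) and 49.3% of all genes, so in this fit the members' share is close to the background. The background was lower with DESeq2 (3678 of 15165 genes) and at equal depth (4904 of 13534). All of these members but Bcl3 stayed called in both.

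**Figure D2:**
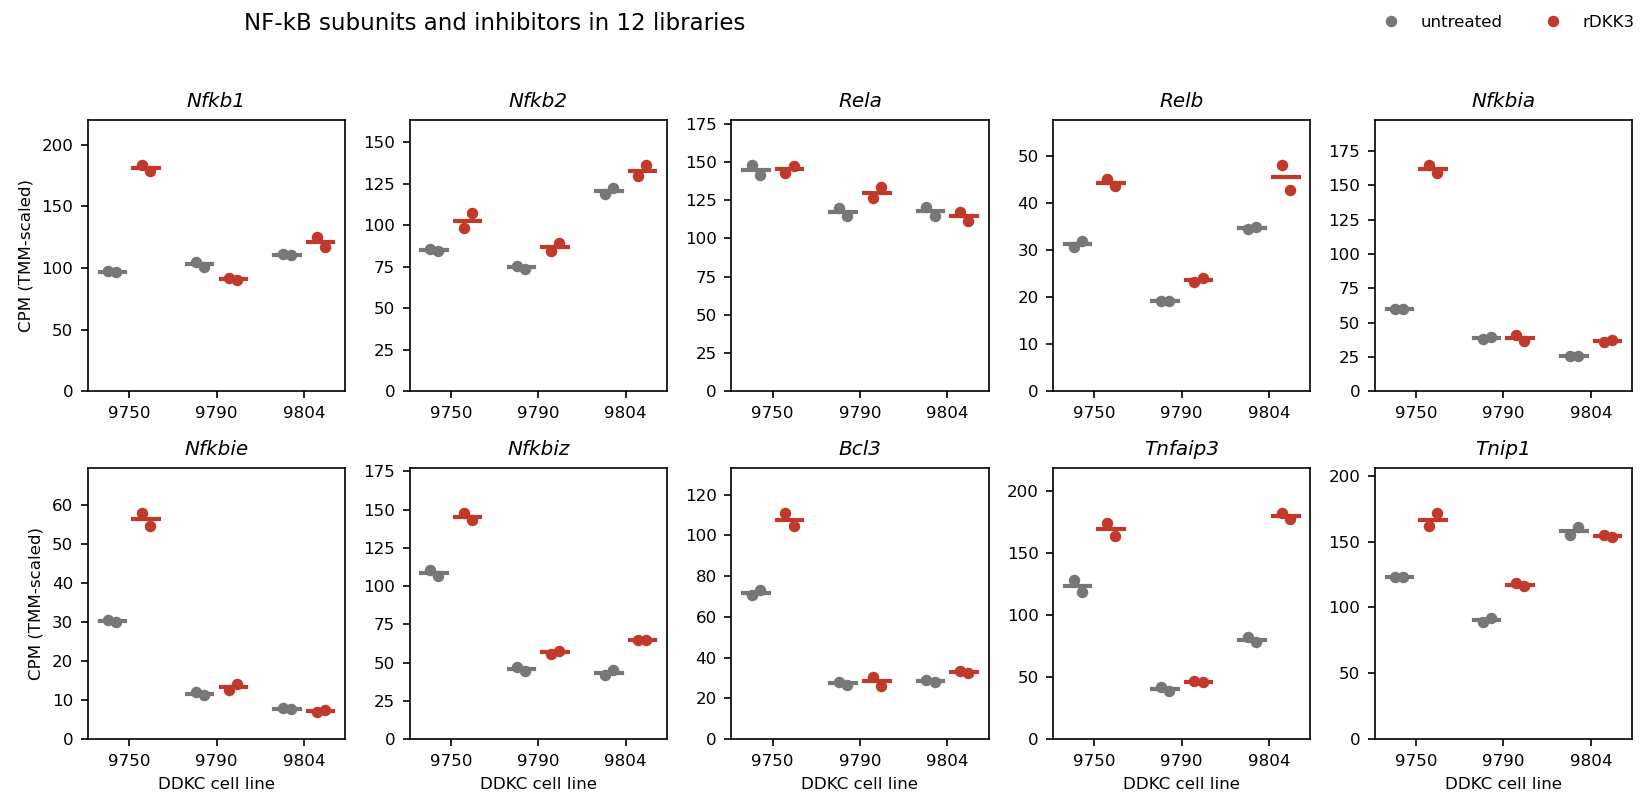
CPM of each member (vertical axis, from 0) in each of 12 libraries, by DDKC line and treatment, with points for libraries and bars for the mean of 2. Nfkb1, Nfkbia and Nfkbie stand out in treated line DDKC_9750 and Tnfaip3 in treated lines DDKC_9750 and DDKC_9804, while Rela stays between 111 and 148 CPM throughout.

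The activator subunits form the DNA-binding dimers. Nfkb1 (chr3:135290416-135397308, minus strand), the precursor of p50, had 97.2 and 96.3 CPM in untreated and 183 and 179 CPM in treated libraries of line DDKC_9750. In line DDKC_9790 it had 105 and 101 CPM untreated and 91.5 and 89.9 CPM treated, and in line DDKC_9804 111 and 110 CPM untreated and 126 and 117 CPM treated. The treated libraries thus lay above the untreated ones in lines DDKC_9750 and DDKC_9804 and below them in line DDKC_9790, with no overlap in any line. Nfkb1 rose by a log2 fold change of 0.90 ± 0.042 (SE) in line DDKC_9750 (edgeR adjusted p = 1.38e-07) and by 0.13 ± 0.042 in line DDKC_9804 (adjusted p = 0.0337), and fell by 0.18 on the log2 scale in line DDKC_9790 (adjusted p = 0.0121). With DESeq2 the calls in lines DDKC_9790 (adjusted p = 0.203) and DDKC_9804 (0.215) were lost, and without a filter that in line DDKC_9804 was too (0.298). With a library left out, the log2 fold change in line DDKC_9804 was 0.064 to 0.21. The difference between lines had an adjusted p of 1.24e-06. Over 3 lines the log2 fold change was 0.29 ± 0.23 (adjusted p = 0.726), and without line DDKC_9750 it was -0.017.

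Rela (chr19:5687511-5698158, plus strand) encodes p65, the main transactivating subunit of the canonical pathway. Its untreated libraries held 148 and 141 CPM in line DDKC_9750, 120 and 115 CPM in line DDKC_9790 and 121 and 115 CPM in line DDKC_9804. The treated ones held 142 and 148, 126 and 133, and 117 and 111 CPM in the same order of lines. Treated and untreated libraries overlapped in lines DDKC_9750 and DDKC_9804 and not in line DDKC_9790. There Rela was higher by a log2 fold change of 0.15 ± 0.049 (adjusted p = 0.0473), a call lost with DESeq2 (adjusted p = 0.389) and at equal depth (adjusted p = 0.191). The call was also lost without a filter (0.226) and with RLE scaling (0.0813). Over 3 lines the log2 fold change was 0.06 ± 0.11 (adjusted p = 0.889), and 0.013 to 0.10 with a line left out.

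Nfkb2 and Relb encode the p100/p52 and RelB subunits, which pair in the noncanonical pathway. Relb (chr7:19340142-19363363, minus strand) had 30.7 and 32.1 CPM untreated and 45.0 and 43.7 CPM treated in line DDKC_9750. It had 19.2 and 19.1 CPM untreated against 23.2 and 24.0 CPM treated in line DDKC_9790, and 34.5 and 34.9 CPM against 48.1 and 42.8 CPM in line DDKC_9804. All treated libraries lay above all untreated ones of their line. The log2 fold changes of Relb were 0.49 ± 0.063, 0.31 ± 0.069 and 0.38 ± 0.061 in lines DDKC_9750, DDKC_9790 and DDKC_9804, each past the threshold, and did not pass the test for a difference between lines (adjusted p = 0.442). The call in line DDKC_9790 was lost with DESeq2 (adjusted p = 0.314) and at equal depth (0.184). Over the 12 libraries Relb was higher by 0.40 ± 0.053 on the log2 scale (adjusted p = 0.000941), and over 3 lines by 0.39 ± 0.12 without passing (adjusted p = 0.578). Nfkb2 (chr19:46292759-46300824, plus strand) went from a mean of 84.9 to 103 CPM in line DDKC_9750, from 74.6 to 86.9 CPM in line DDKC_9790 and from 121 to 133 CPM in line DDKC_9804, again without overlap. Its log2 fold changes were smaller, at 0.28 ± 0.051, 0.22 ± 0.051 and 0.14 ± 0.049, with adjusted p-values of 0.00171, 0.00969 and 0.0380, and the test for a difference between lines gave an adjusted p of 0.271. The Nfkb2 calls in lines DDKC_9790 and DDKC_9804 were lost with DESeq2 (adjusted p = 0.165 and 0.173) and at equal depth (0.0785 and 0.0852), and the latter also without a filter (0.198).

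The IkB proteins hold the dimers back. Nfkbia (chr12:55536195-55539432, minus strand) encodes IkBα, the inhibitor that is degraded first and resynthesized fastest. In line DDKC_9750 it had 59.6 and 60.3 CPM untreated and 165 and 159 CPM treated. In line DDKC_9790 the values were 37.8 and 39.6 CPM untreated and 41.2 and 36.3 CPM treated, and in line DDKC_9804 they were 25.6 and 25.7 CPM untreated and 35.8 and 37.6 CPM treated. The treated libraries were thus far higher in line DDKC_9750, moderately higher in line DDKC_9804, and spread around the untreated ones in line DDKC_9790. Nfkbia rose 2.701-fold in line DDKC_9750 (log2 fold change 1.43 ± 0.056, adjusted p = 4.26e-08), with 3.98% of all genes changed further upward there, and 1.44-fold in line DDKC_9804 (0.52 ± 0.067, adjusted p = 0.000136). In line DDKC_9790 its log2 fold change was -0.013 ± 0.063 (adjusted p = 0.926), and the lines differed with an adjusted p of 1.92e-06. Over 3 lines it came to 0.65 ± 0.29 (adjusted p = 0.611), and to 0.25 to 1.00 with a line left out. Over 12 libraries it came to 0.67 ± 0.19 (adjusted p = 0.0319), a call lost without line DDKC_9750 (0.25, adjusted p = 0.144) and without line DDKC_9804 (0.77, adjusted p = 0.0933). Per Rela, the summed counts of Nfkbia went from 0.417 to 1.11 in line DDKC_9750, from 0.336 to 0.292 in line DDKC_9790 and from 0.220 to 0.325 in line DDKC_9804.

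Nfkbie (chr17:45866629-45874095, plus strand) encodes IkBε, a slower inhibitor of the same class, and was the most weakly measured member, with 32 to 554 counts per library. It had 30.5 and 30.05 CPM untreated and 57.9 and 54.6 CPM treated in line DDKC_9750, 12.01 and 11.3 CPM against 12.6 and 13.99 CPM in line DDKC_9790, and 7.88 and 7.68 CPM against 6.90 and 7.45 CPM in line DDKC_9804. Only line DDKC_9750 held a difference past the threshold, with a log2 fold change of 0.89 ± 0.066 (adjusted p = 3.42e-06), against 0.21 ± 0.082 (adjusted p = 0.191) and -0.10 ± 0.10 (adjusted p = 0.696) in lines DDKC_9790 and DDKC_9804. At these low counts the SE can lie below counting noise. In line DDKC_9790 the unadjusted p of edgeR's test was 0.0790, larger than that SE would give. With a library left out, the value in line DDKC_9790 was 0.115 to 0.238. The difference between lines had an adjusted p of 0.000147. Over 12 libraries Nfkbie did not pass (0.39 ± 0.14, adjusted p = 0.0769), although it did without line DDKC_9804 (0.61, adjusted p = 0.0248), and without line DDKC_9750 the log2 fold change was 0.065 (adjusted p = 0.675).

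Nfkbiz and Bcl3 encode IkBζ and BCL3, atypical IkB proteins that work in the nucleus as cofactors of p50 or p52 dimers. Nfkbiz (chr16:55631738-55659262, minus strand) had 110 and 107 CPM untreated and 148 and 143 CPM treated in line DDKC_9750, 46.9 and 44.4 CPM against 55.8 and 57.6 CPM in line DDKC_9790, and 41.8 and 45.1 CPM against 64.5 and 64.6 CPM in line DDKC_9804. Treated libraries lay above untreated ones in each line. The log2 fold changes of 0.42 ± 0.047, 0.32 ± 0.052 and 0.57 ± 0.053 were all past the threshold (adjusted p = 6.83e-05, 0.00179 and 1.5e-05), and the test for a difference between lines gave an adjusted p of 0.0848, which was under the threshold in 8 of 18 alternatives (0.00888 to 0.422). The call in line DDKC_9790 was lost with DESeq2 (adjusted p = 0.0624). Over 12 libraries Nfkbiz was higher by 0.44 ± 0.051 (adjusted p = 0.000449), with the smallest adjusted p among the members, and over 3 lines it came to 0.44 ± 0.11 (adjusted p = 0.578). Bcl3 (chr7:19542387-19556695, minus strand) had 70.5 and 73.1 CPM untreated and 111 and 104 CPM treated in line DDKC_9750, where it rose by 0.58 ± 0.064 (adjusted p = 6.17e-05). In line DDKC_9804 it went from 29.1 and 27.8 CPM to 33.2 and 32.5 CPM (0.21 ± 0.076, adjusted p = 0.0480). That call was lost with DESeq2 (adjusted p = 0.266), without a filter (0.126) and at equal depth (0.246). In line DDKC_9790 28.03 and 26.7 CPM untreated overlapped with 30.5 and 26.2 CPM treated (0.05 ± 0.076, adjusted p = 0.785). The lines differed with an adjusted p of 0.00331, which was 0.0788 with DESeq2.

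Tnfaip3 (chr10:18876658-18891405, minus strand) encodes A20, a ubiquitin-editing enzyme that shuts down signaling upstream of IKK, and Tnip1 (chr11:54801611-54853743, minus strand) encodes ABIN1, its ubiquitin-binding partner. Tnfaip3 had 129 and 119 CPM untreated and 175 and 164 CPM treated in line DDKC_9750, and 41.8 and 39.1 CPM against 46.8 and 45.9 CPM in line DDKC_9790. In line DDKC_9804 it went from 82.0 and 78.6 CPM to 182 and 177 CPM. All treated libraries were above the untreated ones of their line, and in contrast to Nfkbia the largest difference fell in line DDKC_9804. Tnfaip3 rose there 2.24-fold (log2 fold change 1.16 ± 0.054, adjusted p = 1.51e-07), with 3.24% of all genes changed further upward, and by 0.45 ± 0.053 in line DDKC_9750 (adjusted p = 9.53e-05) and 0.20 ± 0.062 in line DDKC_9790 (adjusted p = 0.0374). The last call was lost with DESeq2 (0.350), at equal depth (0.356), without a filter (0.0946) and with RLE scaling (0.0761). With a library left out, the log2 fold change in line DDKC_9790 was 0.13 to 0.22. The lines differed with an adjusted p of 1.67e-05, and over 3 lines the log2 fold change was 0.62 ± 0.20 (adjusted p = 0.578). With a line left out, the value over 3 lines was 0.34 to 0.84. Per Rela, the summed counts of Tnfaip3 went from 0.851 to 1.15 in line DDKC_9750, from 0.344 to 0.354 in line DDKC_9790 and from 0.683 to 1.58 in line DDKC_9804.

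Tnip1 was higher in 2 lines and did not pass in line DDKC_9804. Its libraries held 123 and 123 CPM untreated and 162 and 172 CPM treated in line DDKC_9750, 89.1 and 91.8 CPM against 119 and 116 CPM in line DDKC_9790, and 155 and 161 CPM against 155 and 153 CPM in line DDKC_9804. Tnip1 rose by 0.44 ± 0.042 in line DDKC_9750 (adjusted p = 1.96e-05) and by 0.37 ± 0.042 in line DDKC_9790 (adjusted p = 0.000246), where it had the largest log2 fold change of the 10 members. In line DDKC_9804 the log2 fold change was -0.041 ± 0.041 (adjusted p = 0.475), and the lines differed with an adjusted p of 0.000172. Over 12 libraries it was higher by 0.26 ± 0.074 (adjusted p = 0.0349), and this was lost without line DDKC_9750 (0.17, adjusted p = 0.157) and without line DDKC_9790 (0.22, adjusted p = 0.198).

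**Figure D3:**
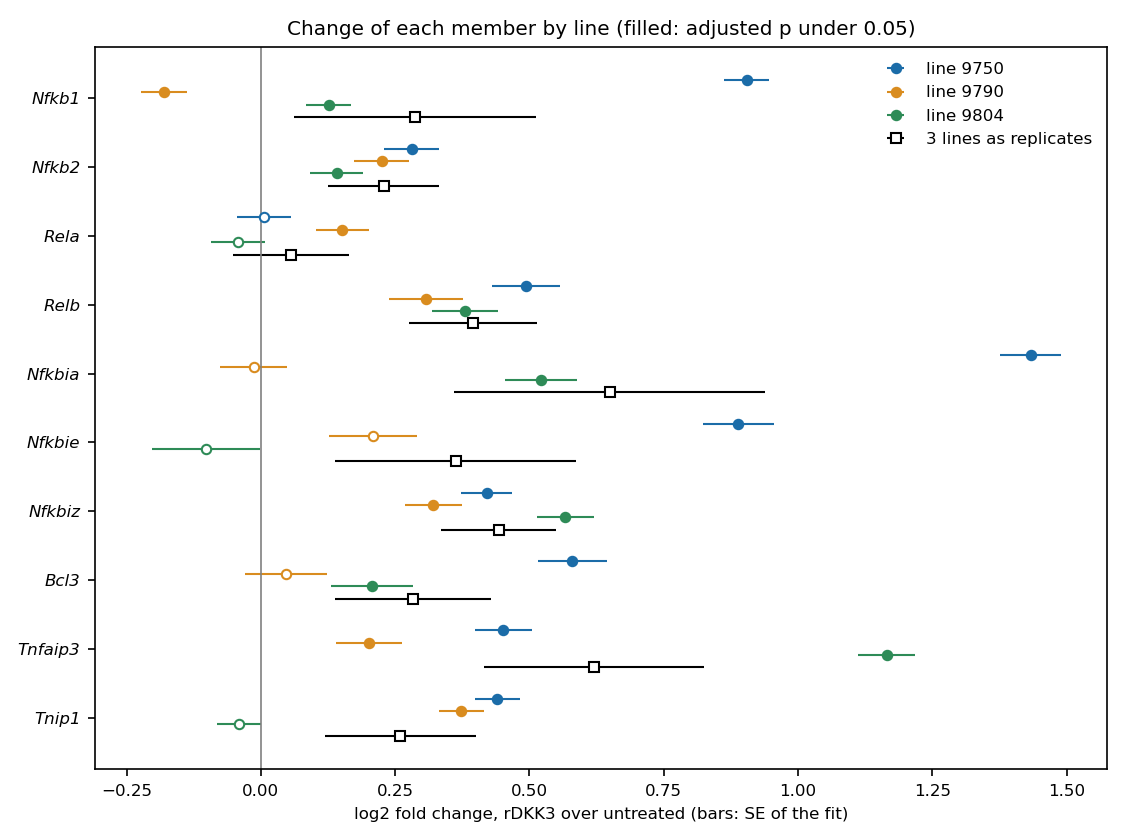
Log2 fold change of rDKK3 over untreated (horizontal axis) for each member, with circles for the 3 single lines, black squares for the fit with 3 lines as replicates, bars for the SE of the fit, and filled symbols past an adjusted p of 0.05. Nfkbia reaches 1.43 in line DDKC_9750 and Tnfaip3 1.16 in line DDKC_9804, and no black square is filled. The bars of single lines can be narrower than counting noise where counts are low.

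The 2 series of library numbers gave like values for the large changes. Nfkbia in line DDKC_9750 differed by 1.47 on the log2 CPM scale between the lower-numbered and by 1.40 between the higher-numbered libraries, and Tnfaip3 in line DDKC_9804 by 1.15 and 1.17. For Nfkb1 the pairs of differences were 0.91 and 0.89 in line DDKC_9750, -0.20 and -0.16 in line DDKC_9790 and 0.17 and 0.082 in line DDKC_9804. Nfkbia in line DDKC_9790 had opposite signs in both series, 0.12 and -0.13. Other cell types' markers moved beside the members in some lines. The summed fibroblast markers were at 50.8 and 52.2 CPM untreated and 145 and 135 CPM treated in line DDKC_9750, most of it Acta2 (38.3 to 128 CPM on average), while Col1a1 went from 11.2 to 6.35 CPM and Pdgfra from 1.72 to 0.647 CPM. Of the 5 fibroblast markers tested, 2 were higher and 2 lower in that line. The sums were at 5.19 to 12.2 CPM in all libraries of the other lines. The summed leukocyte markers went from 27.5 and 29.9 to 47.2 and 45.0 CPM in line DDKC_9790 and from 10.0 and 10.6 to 18.5 and 16.1 CPM in line DDKC_9804. The summed endothelial markers went from 14.8 and 15.6 to 10.6 and 10.3 CPM in line DDKC_9790 and from 8.23 and 8.02 to 20.9 and 15.3 CPM in line DDKC_9804, and were at 0.949 to 1.92 CPM in line DDKC_9750. Nearly all of the endothelial sum in line DDKC_9804 was Kdr (8.02 to 18.04 CPM on average). The summed ductal markers were lower with treatment in each line, going from 5808 and 5933 to 4337 and 4386 CPM in line DDKC_9750, from 9493 and 9959 to 7725 and 8291 CPM in line DDKC_9790 and from 5138 and 5442 to 4152 and 4318 CPM in line DDKC_9804. Of the 8 ductal markers, 4, 3 and 4 were lower and 3, 1 and 2 higher in these lines. The leukocyte sums came almost wholly from Cd68 and Csf1r, and the defining leukocyte marker Ptprc averaged at most 0.126 CPM in any line and condition. The part of these cell types in the members' values was not tested.

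Across the 6 combinations of line and treatment, the level of Nfkbia was most alike to that of Nfkbie (Pearson's r of log2 CPM 0.935), Bcl3 (0.921) and Nfkbiz (0.916) among the members, and least to that of Nfkb2 (-0.13). By rank (Spearman's rho) the order changed, with Nfkbie at 0.886, Nfkbiz at 0.771, Rela at 0.714 and Bcl3 at 0.486. Tnfaip3 was closer to Relb (0.945) than to Nfkbia (0.4997). Outside the members, the 5 protein-coding genes most alike to Nfkbia of 9474 candidates were Clint1 (0.997), Fbxo32 (0.994), Csf1 (0.989), Irak2 (0.989) and Gramd2b (0.984). Their rank correlations were 0.943, 0.943, 0.771, 1 and 0.829 in that order. Csf1, the macrophage growth factor M-CSF, had 54.3 CPM untreated and 324 CPM treated in line DDKC_9750, against 14.5 and 15.3 CPM in line DDKC_9790 and 9.73 and 17.985 CPM in line DDKC_9804. Irak2, a kinase of Toll-like and IL-1 receptor signaling, had 42.7 and 84.4, 38.7 and 37.1, and 27.1 and 33.3 CPM in the same order. These points share their lines, so the values are a description over 6 sums and carry no test.

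The rest of the pathway was read from lists of genes by textbook role. Their counts stand against the shares of all genes called higher and lower, which were 17.9% and 17.9% in line DDKC_9750, 12.3% and 13.9% in line DDKC_9790 and 20.1% and 25.3% in line DDKC_9804. Among the other subunits and IkB proteins (Rel, Nfkbib and Nfkbid), 1 of 3 was higher in lines DDKC_9750 and DDKC_9804, 0 were in line DDKC_9790, and 0 were lower in any of these lines. Rel, which encodes c-Rel, was higher in line DDKC_9750 by 0.46 ± 0.13 (adjusted p = 0.0199). Of the IKK kinases and their activators, 16 of 17 were tested, and 5 were higher and 4 lower in line DDKC_9750, 2 and 0 in line DDKC_9790, and 3 and 4 in line DDKC_9804, with medians of -0.054, 0.066 and 0.048. The shares called higher were 31.2%, 12.5% and 18.8%, the last 2 near those of all genes. The intracellular sensor genes Nod2 and Nod1 rose in line DDKC_9750 by 2.09 ± 0.24 (adjusted p = 7.84e-05) and 1.56 ± 0.079 (adjusted p = 2.46e-07), as did the kinase gene Ikbke by 1.04 ± 0.060 (adjusted p = 5.35e-07). Card10, a scaffold upstream of IKK, rose by 0.45 ± 0.080 in line DDKC_9750 (adjusted p = 0.00143) and fell in line DDKC_9804, where its log2 fold change was -0.57 ± 0.094 (adjusted p = 0.000666).

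Of 20 receptor-proximal adaptors and ubiquitin ligases, 10 were higher and 1 lower in line DDKC_9750, 2 and 2 in line DDKC_9790, and 5 and 4 in line DDKC_9804, with medians of 0.27, 0.016 and 0.016. The shares called higher were 50%, 10% and 25%, against 17.9%, 12.3% and 20.1% of all genes. Birc3, the ubiquitin ligase cIAP2, rose in line DDKC_9750 by 1.51 ± 0.11 (adjusted p = 3.96e-06) and Irak2 by 0.98 ± 0.077 (adjusted p = 5.14e-06). Peli1, a ubiquitin ligase of Toll-like and IL-1 receptor signaling, rose there by 0.89 ± 0.073 (adjusted p = 7.06e-06), whereas the adaptor gene Traf1 fell, with a log2 fold change of -1.33 ± 0.16 (adjusted p = 9.32e-05). Of 16 other brakes on the pathway, 8 were higher and 1 lower in line DDKC_9750, 5 and 1 in line DDKC_9790, and 7 and 5 in line DDKC_9804, with medians of 0.17, 0.058 and 0.076. These are 50%, 31.2% and 43.8% higher, beside the same shares of all genes, with 31.2% lower in line DDKC_9804. Zc3h12a, which encodes the RNase Regnase-1 that destroys inflammatory mRNAs, rose in each line, by 2.38 ± 0.067 in line DDKC_9750 (adjusted p = 4.99e-09), 0.70 ± 0.091 in line DDKC_9790 (adjusted p = 0.000527) and 0.57 ± 0.082 in line DDKC_9804 (adjusted p = 0.000293). Pdlim2, a ligase that promotes p65 degradation, fell in each line, with log2 fold changes of -1.20 ± 0.13 (adjusted p = 4.88e-05), -0.45 ± 0.072 (adjusted p = 0.00161) and -0.41 ± 0.076 (adjusted p = 0.00153). Tnip3 (ABIN3), related to Tnip1, rose by 1.74 ± 0.085 in line DDKC_9750 (adjusted p = 1.92e-07) and by 0.64 ± 0.12 in line DDKC_9790 (adjusted p = 0.00333) and fell in line DDKC_9804, at -0.58 ± 0.13 (adjusted p = 0.00526). Irak3, the inhibitory kinase IRAK-M, rose in line DDKC_9750 by 1.84 ± 0.15 (adjusted p = 7.87e-06). Its log2 fold change was 0.36 ± 0.21 in line DDKC_9790 (adjusted p = 0.295). In line DDKC_9804 it went from 27 to 3 summed counts, at -1.60 ± 0.51 (adjusted p = 0.0626).

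Known NF-kB target genes spanned a wider range of log2 fold changes than the members. Of 40 listed, 32 were tested, and 25 were higher and 7 lower in line DDKC_9750, 3 and 3 in line DDKC_9790, and 15 and 5 in line DDKC_9804. The shares called higher were 78.1%, 9.38% and 46.9%, against 17.9%, 12.3% and 20.1% of all genes, with line DDKC_9790 near the background. The filter kept a gene that was counted well enough in any 1 of the 6 groups. Saa3 and Nos2 had 0 or 1 counts in every library outside treated line DDKC_9750 and entered only through that group, where they are high. Other targets that are low elsewhere, such as Cxcl2, may have done so too. The share and medians of the targets in that line thus depend in part on the filter. Of the genes called higher, 23, 3 and 12 had at least 3 summed counts in both conditions. The median log2 fold change of the 32 was 2.08 in line DDKC_9750, 0.0017 in line DDKC_9790 and 0.40 in line DDKC_9804. Over the genes with at least 3 summed counts in both conditions, the medians were 2.04, 0.0034 and 0.40. Lcn2, an iron-binding acute phase protein, went from 1818 to 46010 summed counts in line DDKC_9750 and from 2 to 95 in line DDKC_9804, and had 0 and 1 counts in line DDKC_9790. It was the only gene called over 3 lines (adjusted p = 0.0132). Its summed counts were under 3 in line DDKC_9790 and in untreated line DDKC_9804. With at least 10 counts required in every library, or with a line left out, 0 genes were called over 3 lines. Saa3, another acute phase gene, went from 1 to 3858 summed counts in line DDKC_9750 and had 0 in each library of the other lines. Nos2, the inducible nitric oxide synthase, went from 1 to 148 summed counts in line DDKC_9750. The neutrophil chemokine gene Cxcl2 went there from 13 to 263 summed counts, a log2 fold change of 5.86 ± 0.33 (adjusted p = 4.57e-07). Line DDKC_9750 had the highest median of both the targets and the members, and for the targets the filter had a part in this.

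**Figure D4:**
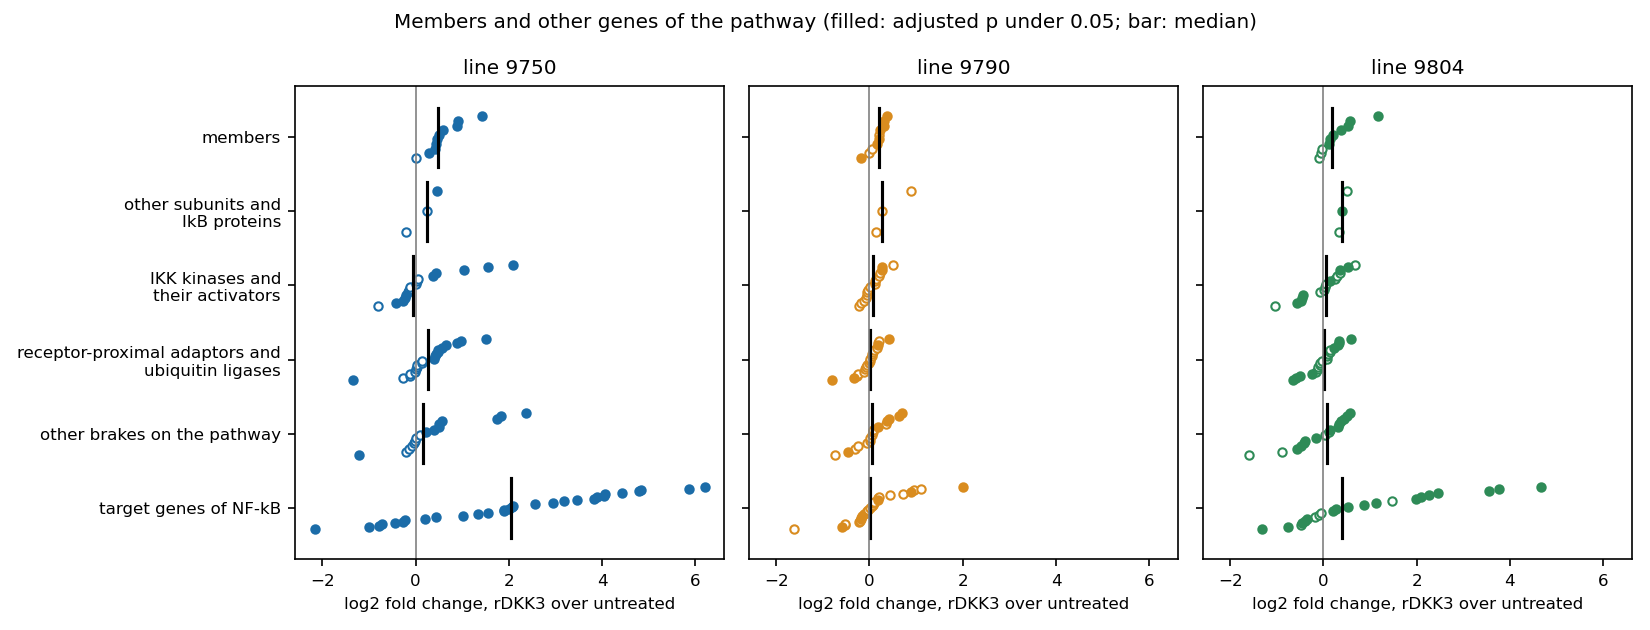
Log2 fold change of rDKK3 over untreated (horizontal axis) in each line for the members and 5 lists of pathway genes, with filled points past an adjusted p of 0.05 and a bar for the median of the plotted genes. Genes under 3 summed counts in a condition are left out, which leaves 30, 27 and 22 target genes in lines DDKC_9750, DDKC_9790 and DDKC_9804, and the target genes of line DDKC_9750 spread widest, with a median of 2.04. Some targets may have passed the filter only through treated line DDKC_9750, where they are high.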

How the data were processed

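RNA was sequenced as 50-base read pairs in 12 libraries. The authors prepared strand-specific libraries, aligned with STAR 2.7.9a to GRCm39, counted on GENCODE genes with GenomicAlignments by strand, and deposited raw counts per gene without normalization. Gene coordinates are those of the deposited table. The 92 spike-in rows held 0 counts and were left out. The table holds no comparison columns.

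A further allele of the lines is not reported here. Samples were grouped by line and treatment from their titles. Counts were tested with edgeR 4.0.16 in R 4.3.3 (quasi-likelihood test, TMM, filter over 6 groups, 15165 genes, Benjamini-Hochberg, threshold 0.05) in 4 ways: sums of 2 libraries with line as block, 12 libraries with line as block, contrasts within lines, and the interaction. The line block pairs samples of 1 line (correlation of deviations 0.805 to 0.874). Deviations were taken from the mean of the 3 lines in each condition. That step by itself makes correlations between lines negative (-0.54 to -0.27), so these are no comparison for the pairing. CPM are TMM-scaled, and log2 CPM used a prior count of 2. The SE comes from the log2 fold change and F. Within lines it can lie below counting noise, most at low counts, so it overstates precision there and the p-values do not follow from it. A floor of 3 counts is 0.127 to 0.755 CPM per library. The tests were checked on simulated data, of which no value is given here and on which no result rests. Alternatives covered DESeq2 1.42.0, limma 3.58.1, RLE, filters, equal depth and left-out libraries.

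All 10 members were named in full. Of each pathway list, the up to 4 genes with the largest change in either direction among those called in line DDKC_9750, which had the most members called, were named, and the 5 genes most alike to Nfkbia over 6 sums with a mean log2 CPM of at least 3. Members and lists were chosen with earlier results of these data known.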

Additional observations from a re-analysis of the deposited data

Results flagged for a closer look

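For 6 members the response to rDKK3 differed between the 3 lines by edgeR's interaction test of line and treatment, set against the spread between libraries. The adjusted p was 1.24e-06 for Nfkb1, 1.92e-06 for Nfkbia, 1.67e-05 for Tnfaip3, 0.000147 for Nfkbie, 0.000172 for Tnip1 and 0.00331 for Bcl3. Nfkb1, Nfkbia, Nfkbie, Tnfaip3 and Tnip1 stayed under 0.05 in all 18 alternatives run, with highest values of 2.06e-05, 3.55e-05, 0.0167, 0.000461 and 0.00335, and Bcl3 did so in 16 of 18, with a highest value of 0.0788. The same test called 49.3% of all genes. Groups of 2 libraries are too small to look for single samples apart from the others.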

How the results depend on the processing

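Over 3 lines no member passed under any of 9 alternative settings, and the sign turned for 1 member under 1 setting, Nfkb1 at -0.017 without line DDKC_9750 (-0.017 to 0.53 with a line left out). The count of genes called over 3 lines was 90 without a filter, 0 with at least 10 counts in every library, 103 with DESeq2, 2 at equal depth, 0 to 0 with a line left out and 0 with no replicate block. Over 12 libraries it was 0 with no replicate block and 629 with limma's correlated repeat libraries (correlation 0.725), where Relb, Nfkbiz and Tnfaip3 stayed called. With a library or line left out it was 1949 to 3628, and 4 to 7 members were called. Over 12 libraries Rela was -0.0025 without a filter, and Nfkb1 -0.022 without line DDKC_9750 (-0.022 to 0.54 with a line or library left out). Within lines DESeq2 called 2794, 1275 and 3717 genes in lines DDKC_9750, DDKC_9790 and DDKC_9804 and 3678 for a difference between lines. Equal depth gave 1922 in line DDKC_9790 and 4904 for the difference, and the library series as a covariate gave 6066 in line DDKC_9790. With a library left out, the counts were 3729 to 5543, 2366 to 3866, 4939 to 6905 and 6321 to 7093 in the same order, and 8 to 9, 2 to 5 and 4 to 7 members were called higher. Small values turned sign. Rela in line DDKC_9750 was -0.059 without a filter, -0.054 in the lower library numbers and -0.028 to 0.034 with a library left out, and in line DDKC_9804 -0.091 to 0.025. Nfkbia in line DDKC_9790 was 0.038 at equal depth, 0.12 in the lower library numbers and -0.13 to 0.077. Bcl3 in line DDKC_9790 was -0.024 in the higher library numbers and -0.089 to 0.16, and Tnip1 in line DDKC_9804 was -0.069 to 0.031. For the difference between lines, Nfkbiz passed in 8 of 18 alternatives, with RLE (0.0277), with at least 10 counts (0.0269) and with a library left out in the others (lowest 0.00888), Rela passed with the library series (0.00348) and Bcl3 was lost at equal depth (0.0522). The single-series differences and the second gene length were chosen after seeing the data. The cause of these changes was not tested. Depth limits Nfkbie most, with as few as 32 counts in a library.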
